A study of Mus musculus with 4 samples.

Results

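Keratins are the intermediate filament proteins of epithelial cells, and their messages are described here in mouse iHep cells, which are made hepatocyte-like by induction. The members are all noncontrol probes on the array whose gene name is Krt followed by a number, with or without a letter. They came to 51 probes for 43 genes, out of 41174 probes and 28090 gene names. The cells were of strain C57BL/6 and, per the labels, came from cells abbreviated MDFs, which the labels do not spell out. They were kept in 3D or in 2D culture, and the 2 independent experiments iHep-2 and iHep-1 each gave 1 array of each culture, so that there were 2 arrays per group and 4 in all. All groups share the induction, whose factors the labels do not name. The labels of the 2D samples, unlike those of the 3D samples, end the experiment's name with a plus sign, and what it marks cannot be told apart from culture. Nothing in the labels says how many cultures were pooled in an experiment.

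A keratin filament is an obligate heteropolymer in which type I (acidic) and type II (basic) chains pair one to one. Type II Krt8 with type I Krt18 is the first keratin pair of embryonic epithelia and the keratin pair of adult hepatocytes, whereas bile duct cells add Krt7 (type II) and Krt19 (type I). Stratified epithelia use other pairs, such as Krt5 with Krt14 in basal cells and Krt1 with Krt10 above them, and the hair follicle has its own inner root sheath and hair shaft keratins. Type I genes other than Krt18 lie in a cluster on mouse chromosome 11, and the type II genes and Krt18 lie together on chromosome 15. Of the 51 probes, 27 lie on chromosome 11 and 24 on chromosome 15.

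The values rest on oligonucleotide probes of 60 bases, and those of the simple and biliary pairs are printed because the main contrasts turn on them. Positions are those of mouse build mm9, per the file headers. The Krt8 probe called probe 2 here lies at chr15:101827346-101827405 on the minus strand and the Krt18 probe at chr15:101862341-101862400 on the plus strand. The capitals mark the 11 bases these probes share, the longest run shared between tested probes of different keratin genes (187 pairs, median 6 bases).
Krt8 probe 2: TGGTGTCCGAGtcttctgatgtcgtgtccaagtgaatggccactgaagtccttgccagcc
Krt18: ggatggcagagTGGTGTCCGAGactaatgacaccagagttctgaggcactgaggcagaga

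The biliary probes lie at chr15:101253718-101253777 on the plus strand (Krt7, probe 1) and chr11:100002392-100002451 on the minus strand (Krt19).
Krt7 probe 1: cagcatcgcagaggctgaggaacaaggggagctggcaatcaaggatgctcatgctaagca
Krt19: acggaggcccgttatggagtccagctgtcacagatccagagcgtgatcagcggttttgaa

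Krt8 probe 1 lies at chr15:101827214-101827273, 132 bases from probe 2, and Krt7 probe 2 at chr15:101258172-101258231, 4454 bases from probe 1. Krt20 was read at chr11:99289776-99289835 and Krt23 at chr11:99339393-99339452, both on the minus strand. No genome or annotation of build mm9 was used, so exons and untranslated regions are not assigned. Of the 51 probes, 9 span more than 61 bases of genome, as a probe across an intron would. In the whole set, the only pair of keratin probes of different genes that shared as many as 20 bases was that of Krt83 and Krt86, and neither was detected. RefSeq gives the transcript listed for the Krt83 probe to Krt87, and the array's gene name is kept here.

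Levels are log2 processed signals minus the log2 of each array's 75th percentile, so that 0 is the 75th percentile itself and a difference of 1 is 2-fold. Each level belongs to 1 array, and a probe was detected when the scanner software marked it well above background. Simple and biliary keratins were detected throughout, and hair keratins mostly were not. All 5 probes of the 4 simple keratins and all 3 probes of the 2 biliary keratins were detected on all 4 arrays. Of 19 stratified epithelial genes, 7 were detected on all arrays by at least 1 probe, 6 on some and 6 on none. The 7 include Krt1, whose detected probe carries the plus strand and may not read Krt1 message. Of 5 inner root sheath genes, 1 was detected on some arrays and 4 on none, and of 12 hair genes, 1 was detected on all arrays, 1 on some and 10 on none. Krt222, a keratin-like gene outside these classes, was detected on all arrays.

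**Figure D1:**
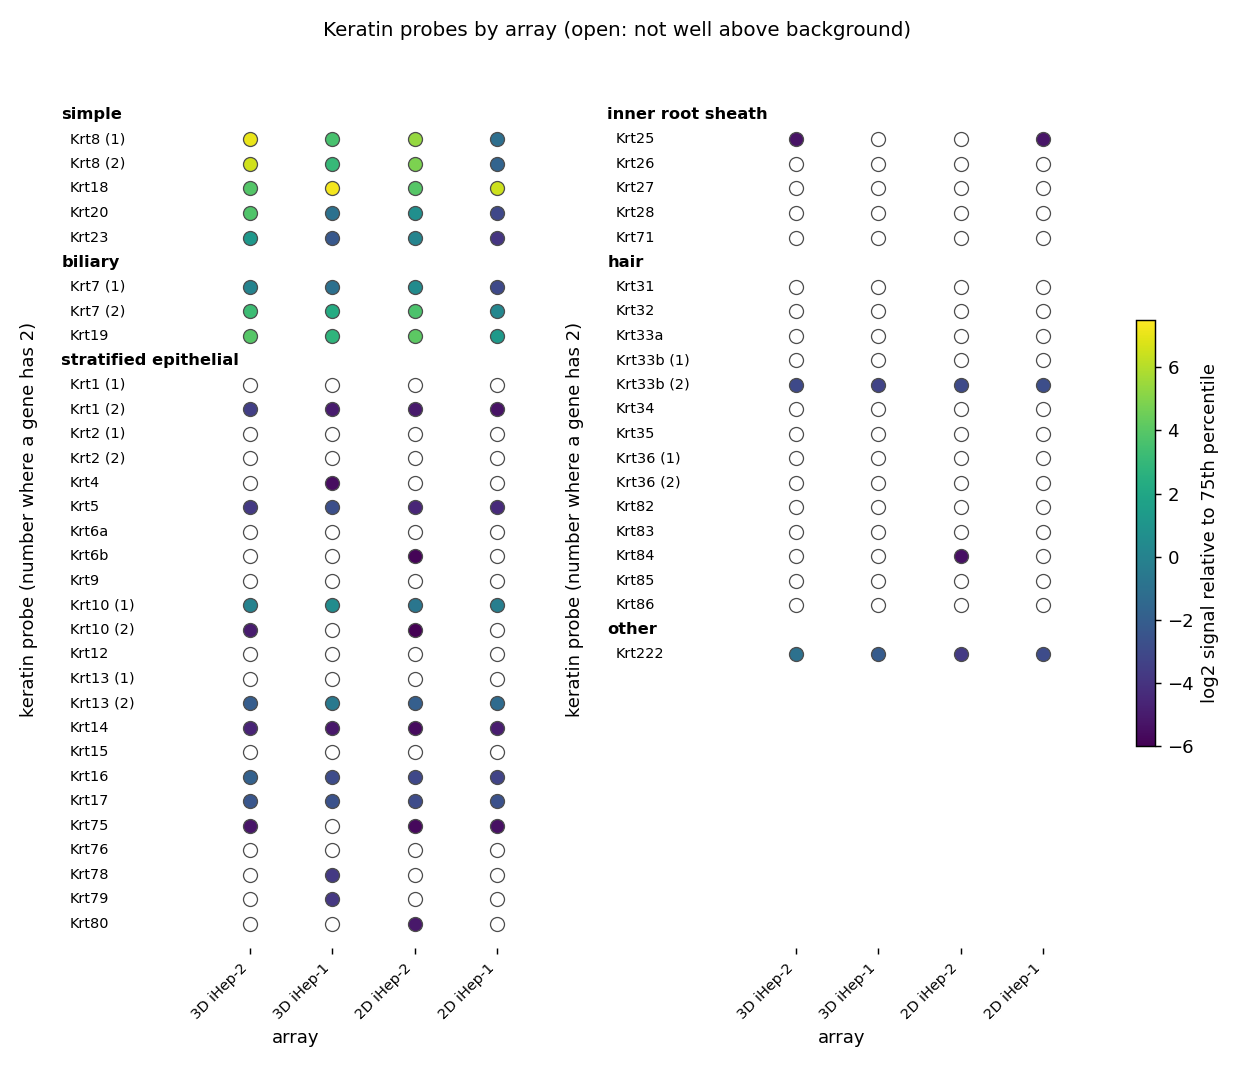
All 51 keratin probes by class (down the page) and array (across), with the colour giving the log2 signal relative to the array's 75th percentile and open circles marking probes not well above background. The simple and biliary rows are filled on all 4 arrays, and the hair rows are open except Krt33b probe 2 and, on 1 array, Krt84.

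By array, 39.2% of keratin probes were detected in 3D iHep-2, 39.2% in 3D iHep-1, 43.1% in 2D iHep-2 and 37.3% in 2D iHep-1. Over all 41174 probes the share ran from 56.0% to 59.3%. In all, 17 keratin probes were detected on all arrays, 9 on some and 25 on none. The 20 genes detected by no probe were Krt2, Krt6a, Krt9, Krt12, Krt15, Krt26, Krt27, Krt28, Krt31, Krt32, Krt33a, Krt34, Krt35, Krt36, Krt71, Krt76, Krt82, Krt83, Krt85 and Krt86. They include Krt15 of basal keratinocytes, Krt12 of the cornea, Krt9 of footpad skin and most chains of the hair shaft. A signal not well above background does not show that a message is absent.

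The 75th percentile signals of the arrays were 399 in 3D iHep-2, 594 in 3D iHep-1, 616 in 2D iHep-2 and 523 in 2D iHep-1, with no saturated spot, and all lay on 1 slide read at 1 scan time. The spike-in controls, RNA added at set amounts, had a log2 signal of 9.76 in 3D iHep-2, 10.95 in 3D iHep-1, 9.81 in 2D iHep-2 and 9.11 in 2D iHep-1. Alb, the serum albumin of hepatocytes, was at 9.57 in 3D iHep-2 and 8.94 in 3D iHep-1, against 8.82 in 2D iHep-2 and 9.11 in 2D iHep-1. All 6 hepatocyte markers on the array (Alb, Ttr, Apoa1, Apob, Hnf4a, Cps1) were detected on every array. Their linear signals summed to 1409 and 849 times the 75th percentile in 3D of iHep-2 and iHep-1, against 652 and 836 in 2D. Alb made up 54.0% to 69.1% of these sums. Cps1 was at 5.42 and 2.81 in 3D, against 3.09 and 0.22 in 2D. Of the 6, Cps1 alone was at least 2-fold higher in 3D in each experiment (3.77% of all tested probes), and alone so in iHep-2 in each culture (4.6%). In bulk RNA, fewer cells of a type and less RNA per cell cannot be told apart.

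Krt8 showed the widest span of any keratin. Its probe 1 level was 7.04 in 3D iHep-2 and 3.58 in 3D iHep-1, against 5.35 in 2D iHep-2 and -1.12 in 2D iHep-1. The 2D array of iHep-1 stood lowest and was the only one below the 75th percentile. Krt8 was thus higher in 3D in both experiments, by 1.69 log2 units (3.23-fold) in iHep-2 and by 4.71 (26.1-fold) in iHep-1. Probe 2 gave 1.69 and 4.75. The groups overlapped all the same, because 3D iHep-1 lay below 2D iHep-2. The means were 5.31 ± 2.44 in 3D and 2.11 ± 4.57 in 2D (SD, n = 2 each), and limma gave a log2 difference of 3.20 with a standard error of 2.70 and an adjusted p of 0.784. That standard error includes the difference between experiments. With the experiment as a block the standard error was 0.84 and the limma adjusted p 0.338. Without 2D iHep-1 the difference was -0.036, but this sets both 3D arrays against 2D iHep-2 alone, so that the difference between experiments enters it. The difference within iHep-2, which does not use 2D iHep-1, was 1.69.

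Krt8 also differed between experiments. In this contrast the 2 arrays of a group are the 3D and 2D arrays of 1 experiment, which are not replicates. iHep-2 exceeded iHep-1 by 3.45 in 3D (10.96-fold) and by 6.47 in 2D (88.5-fold), and the 2 experiments did not overlap. The limma log2 difference was 4.96 ± 1.76 (SE), with an adjusted p of 0.388, and it was 2.61 without 2D iHep-1 and 7.31 without 3D iHep-1. Under the alternatives tried the adjusted p ran from 0.000482, with spike-in scaling, to 0.671.

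Krt18, the type I partner of Krt8, ran the other way between experiments. Its level was 3.89 in 3D iHep-2 and 7.25 in 3D iHep-1, against 3.92 in 2D iHep-2 and 6.49 in 2D iHep-1. Both iHep-2 arrays were below both iHep-1 arrays: iHep-2 minus iHep-1 was -3.36 in 3D and -2.57 in 2D, and limma gave -2.96 ± 0.35 (SE). It missed the threshold, at an adjusted p of 0.0727, which was the smallest among the keratins in this contrast. Spike-in scaling aside, the alternatives with all 4 arrays gave 0.0325, with normexp background correction, to 0.0942, with detection on all 4 arrays. Spike-in scaling gave 0.237. By culture Krt18 differed little: 3D minus 2D was -0.03 in iHep-2 and 0.76 in iHep-1. Its adjusted p in limma was 0.965, and 0.609 with the experiment as a block.

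The partner messages were therefore on opposite sides in the experiment contrast. Krt8 was lowest where Krt18 was high, in 2D iHep-1, while in 3D iHep-1 Krt8 stood at 3.58 and Krt18 at its highest. Signals of different probes are on no common scale, so no ratio of Krt8 to Krt18 was formed.

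Krt20, a type I keratin best known from intestinal and gastric epithelium and the umbrella cells of the bladder, was higher in 3D in both experiments. Its level was 3.80 in 3D iHep-2 and -0.98 in 3D iHep-1, against 0.65 in 2D iHep-2 and -3.08 in 2D iHep-1. The differences were 3.15 (8.88-fold) in iHep-2 and 2.10 (4.28-fold) in iHep-1, but the cultures overlapped and limma gave an adjusted p of 0.784. With the experiment as a block limma gave 2.62 ± 0.36 (SE) with an adjusted p of 0.223. Both iHep-2 arrays were above both iHep-1 arrays, by 4.78 in 3D and 3.73 in 2D. For this contrast limma gave 4.26 ± 1.34 (SE) with an adjusted p of 0.334, and with culture as a block an adjusted p of 0.0394. Without 3D iHep-2 the difference was 2.68. The block and spike-in scaling aside, the alternatives with all 4 arrays gave a limma adjusted p of 0.271 to 0.364. Spike-in scaling gave 0.0054, which follows the size of the difference alone.

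Krt23, another type I chain, had the same order of arrays as Krt20. Its level was 1.18 in 3D iHep-2 and -2.31 in 3D iHep-1, against 0.11 in 2D iHep-2 and -3.93 in 2D iHep-1. Its 3D minus 2D difference was 1.06 in iHep-2 and 1.62 in iHep-1 (limma adjusted p of 0.878, and 0.285 with the experiment as a block). Between experiments it was higher in iHep-2 by 3.49 in 3D (11.2-fold) and 4.05 in 2D (16.5-fold). The limma value was 3.77 ± 0.71 (SE) with an adjusted p of 0.148, and 0.0353 with culture as a block. The block and spike-in scaling aside, the alternatives with all 4 arrays gave an adjusted p of 0.0638 to 0.169. Spike-in scaling gave 0.0241, which again follows the size of the difference alone.

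**Figure D2:**
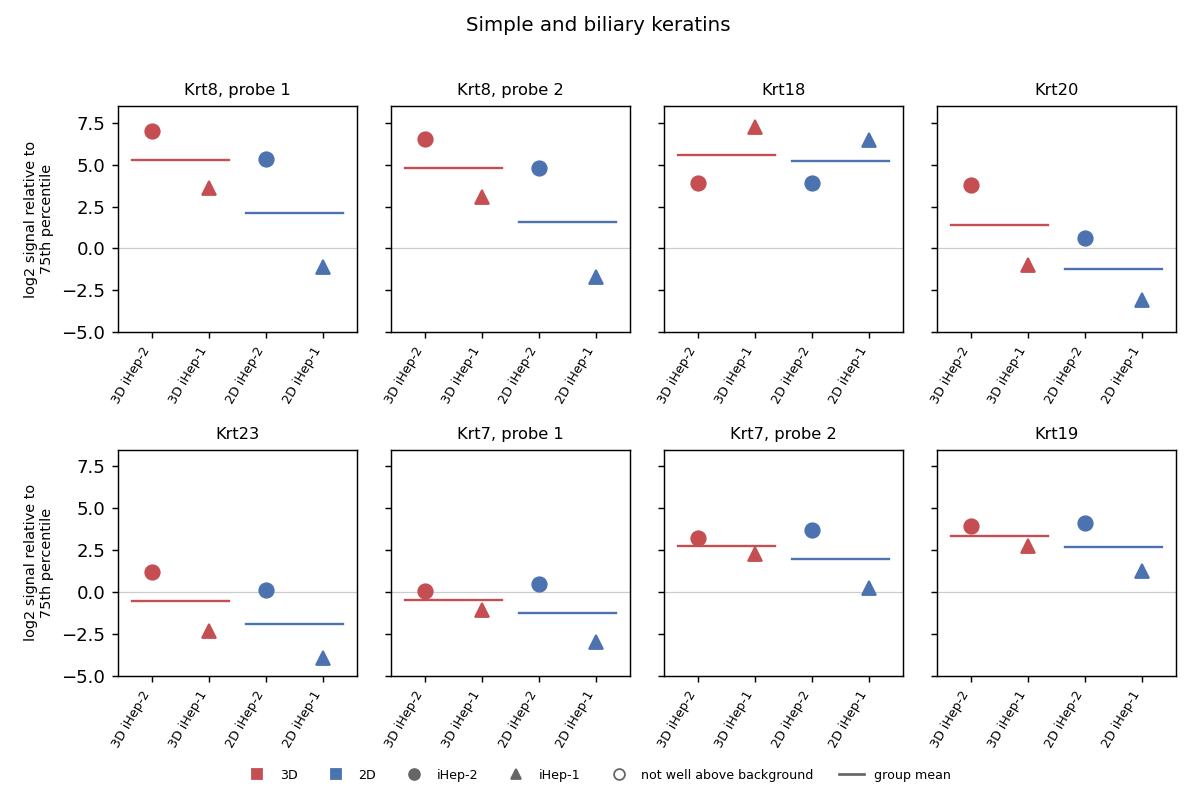
Level of each simple and biliary keratin probe (y, log2 signal relative to the array's 75th percentile) on the 4 arrays (x), with circles for iHep-2, triangles for iHep-1, red for 3D, blue for 2D and lines for the mean of 2 arrays. Krt8, Krt20, Krt23, Krt7 and Krt19 are lowest in 2D iHep-1, where Krt18 stands at 6.49.

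Neither biliary keratin passed the test by culture or by experiment. Krt7 probe 2 was at 3.23 in 3D iHep-2 and 2.25 in 3D iHep-1, against 3.67 in 2D iHep-2 and 0.22 in 2D iHep-1. Its 3D minus 2D difference was -0.44 in iHep-2 and 2.03 in iHep-1, and probe 1 gave -0.43 and 1.96. Both probes thus placed 2D iHep-1 apart at the low end, with the other 3 arrays between 2.25 and 3.67 for probe 2.

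Krt19 followed the same order as Krt7. It was at 3.93 in 3D iHep-2 and 2.77 in 3D iHep-1, against 4.11 in 2D iHep-2 and 1.26 in 2D iHep-1, so that 3D minus 2D was -0.18 in iHep-2 and 1.50 in iHep-1. Whether the culture difference itself differed between experiments was not tested, and with spike-in scaling it was -1.02 in iHep-2 against 0.37 in iHep-1 for Krt7 probe 2 and -0.76 against -0.16 for Krt19. Between experiments both genes were higher in iHep-2 and the experiments did not overlap. For Krt19 the difference was 1.17 in 3D and 2.85 in 2D, with a limma adjusted p of 0.294. For Krt7 probe 2 it was 0.98 in 3D and 3.45 in 2D, with a limma adjusted p of 0.373. Without 2D iHep-1 the difference was 1.26 for Krt19 and 1.20 for Krt7. Their 3D minus 2D adjusted p in limma was 0.902 for Krt19 and 0.897 for Krt7 probe 2.

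The other biliary markers were not all on the side of Krt7 and Krt19 between experiments. Sox9, a transcription factor of bile duct cells, was at 1.58 in 3D iHep-2 and 0.65 in 3D iHep-1, against 1.33 in 2D iHep-2 and 0.43 in 2D iHep-1, so that it too was higher in iHep-2 in both cultures. Onecut1, another factor of bile duct development, was lower in iHep-2 in both, at -1.36 and 0.08 in 3D of iHep-2 and iHep-1, against -0.20 and 1.09 in 2D. Spp1, the osteopontin of bile duct cells, was at 1.07 and 3.59 in 3D, against 3.82 and 3.47 in 2D, and Cftr, a chloride channel, was detected on the iHep-1 arrays only. Of the 7 biliary markers on the array, Krt7 and Krt19 included, 6 were detected in 3D iHep-2, 7 in 3D iHep-1, 6 in 2D iHep-2 and 7 in 2D iHep-1. Their summed linear signal, in multiples of the 75th percentile, was 30.7 and 26.7 in 3D iHep-2 and 3D iHep-1, against 47.8 and 18.4 in 2D iHep-2 and 2D iHep-1. Of 3 mesothelial markers on the array, 2 were detected in 2D iHep-2 and 1 on each other array, Upk3b on none, and they summed to 4.05 and 2.08 in 3D, against 68.7 and 2.40 in 2D. Msln, the mesothelin, carried this sum, at 2.01 and 1.05 in 3D of iHep-2 and iHep-1, against 6.10 and 1.26 in 2D, while Wt1 was detected in 2D iHep-2 alone, at -5.53. Mesothelial cells also make simple keratins, and the part of such cells in these results was not tested.

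No stratified keratin passed the test by culture. Krt5, the type II chain of basal keratinocytes, was at -3.72 in 3D iHep-2 and -2.77 in 3D iHep-1, against -4.55 in 2D iHep-2 and -4.38 in 2D iHep-1. Both 3D arrays were above both 2D arrays, by 0.83 in iHep-2 and by 1.60 in iHep-1 (limma adjusted p of 0.695). Krt14, its type I partner, was at -4.65 and -5.12 in 3D of iHep-2 and iHep-1, against -5.59 and -4.92 in 2D. Its groups overlapped and its difference had opposite signs, 0.94 in iHep-2 and -0.20 in iHep-1.

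Krt16 and Krt17, type I chains that skin induces after wounding, were both slightly higher in 3D. Krt16 was at -1.86 and -2.93 in 3D of iHep-2 and iHep-1, against -3.05 and -3.28 in 2D, and Krt17 at -2.38 and -2.60 in 3D against -2.94 and -2.64 in 2D. For Krt17 the difference in iHep-1 was 0.04. Neither passed in limma, with adjusted p of 0.726 for Krt16 and 0.781 for Krt17.

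Krt75, a type II chain of the hair follicle's companion layer that is counted here with the stratified class, was detected on 3 arrays. It was at -5.24 and -6.47 in 3D of iHep-2 and iHep-1, against -5.73 and -5.46 in 2D. The 3D array of iHep-1, the lowest, was the one on which it was not well above background. Krt13, a type I chain of inner stratified mucosa such as the oesophagus, was at -2.05 and -0.54 in 3D of iHep-2 and iHep-1, against -1.95 and -1.35 in 2D by its detected probe. It was lower in iHep-2 in both cultures: iHep-2 minus iHep-1 was -1.51 in 3D and -0.59 in 2D, with a limma adjusted p of 0.379.

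The keratins of suprabasal epidermis were each read by 2 probes that did not give the same detection. Krt10 probe 1, which spans 343 bases of genome at chr11:99246939-99247281, was at -0.06 and 0.50 in 3D of iHep-2 and iHep-1, against -0.70 and -0.25 in 2D. It was higher in 3D in both experiments, by 0.64 and 0.75, with a limma adjusted p of 0.702. Krt10 probe 2, at chr11:99247994-99248053 in the same gene, was detected on the iHep-2 arrays only. Its level there was -4.98 in 3D and -6.03 in 2D, and the mean of both was at least 1.43-fold above iHep-1 by the bound that the lowest detected signal of the iHep-1 arrays sets. The bound rests on 3D, since the value of 2D iHep-2 lay below the lowest detected signal of 2D iHep-1, which was -5.98. The sequences of both are printed because they disagree on whether the gene is detected in iHep-1.
Krt10 probe 1: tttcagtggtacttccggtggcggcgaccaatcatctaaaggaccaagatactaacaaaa
Krt10 probe 2: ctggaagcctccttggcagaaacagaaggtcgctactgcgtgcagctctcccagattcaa

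Krt1, the type II partner of Krt10, had 1 undetected probe on the minus strand, the strand of the other type II probes around it. The detected Krt1 probe, at chr15:101678904-101678963, carries the plus strand in the files. It was at -3.50 and -5.0 in 3D of iHep-2 and iHep-1, against -5.08 and -5.36 in 2D, and whether it reads Krt1 message or a transcript from the opposite strand cannot be told apart from these data. Every count of detected or tested genes that holds Krt1 rests on this probe. Among 21183 probes whose gene strand could be looked up, 0.93% lay on the opposite strand, and among 35 keratin probes with a strand looked up, Krt1 not being one of them, 0 did.

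The 2 probes of a keratin gene did not always give the same detection, and no share over all genes on the array is set beside this. Of 8 genes with 2 probes, 2 were detected by both on all arrays (Krt7 and Krt8), 2 by neither (Krt2 and Krt36), and 4 disagreed (Krt1, Krt10, Krt13 and Krt33b). The Krt13 probes lie 1761 bases apart on the minus strand, probe 1 at chr11:99980710-99980948 and probe 2 at chr11:99982471-99982530, and probe 2 alone was detected.
Krt13 probe 1: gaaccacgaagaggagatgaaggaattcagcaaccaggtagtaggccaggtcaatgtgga
Krt13 probe 2: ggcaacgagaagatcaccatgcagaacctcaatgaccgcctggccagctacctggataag

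The inner root sheath and hair classes held few signals. Krt33b, a type I hair shaft chain, was at -3.01 and -3.30 in 3D of iHep-2 and iHep-1, against -2.95 and -2.80 in 2D by probe 2, while its probe 1 was not detected. It was the one tested keratin gene with both 3D arrays below both 2D arrays, at a 3D minus 2D difference of -0.06 in iHep-2 and of -0.51 in iHep-1 (limma adjusted p of 0.784). Krt25, a type I chain of the inner root sheath, was detected in 3D iHep-2 at -5.32 and in 2D iHep-1 at -5.21. Its other values, -7.18 in 3D iHep-1 and -8.51 in 2D iHep-2, were not well above background, so each culture and each experiment had it on 1 array.

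Krt222 had the largest culture difference in iHep-2 among the genes outside the simple class that were detected on all arrays. Its level was -0.99 in 3D iHep-2 and -2.12 in 3D iHep-1, against -3.65 in 2D iHep-2 and -2.94 in 2D iHep-1. Both 3D arrays were above both 2D arrays, by 2.65 (6.29-fold) in iHep-2 and by 0.82 (1.77-fold) in iHep-1. The limma log2 difference was 1.74 ± 0.53 (SE), with an unadjusted p of 0.0348 and an adjusted p of 0.695.

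**Figure D3:**
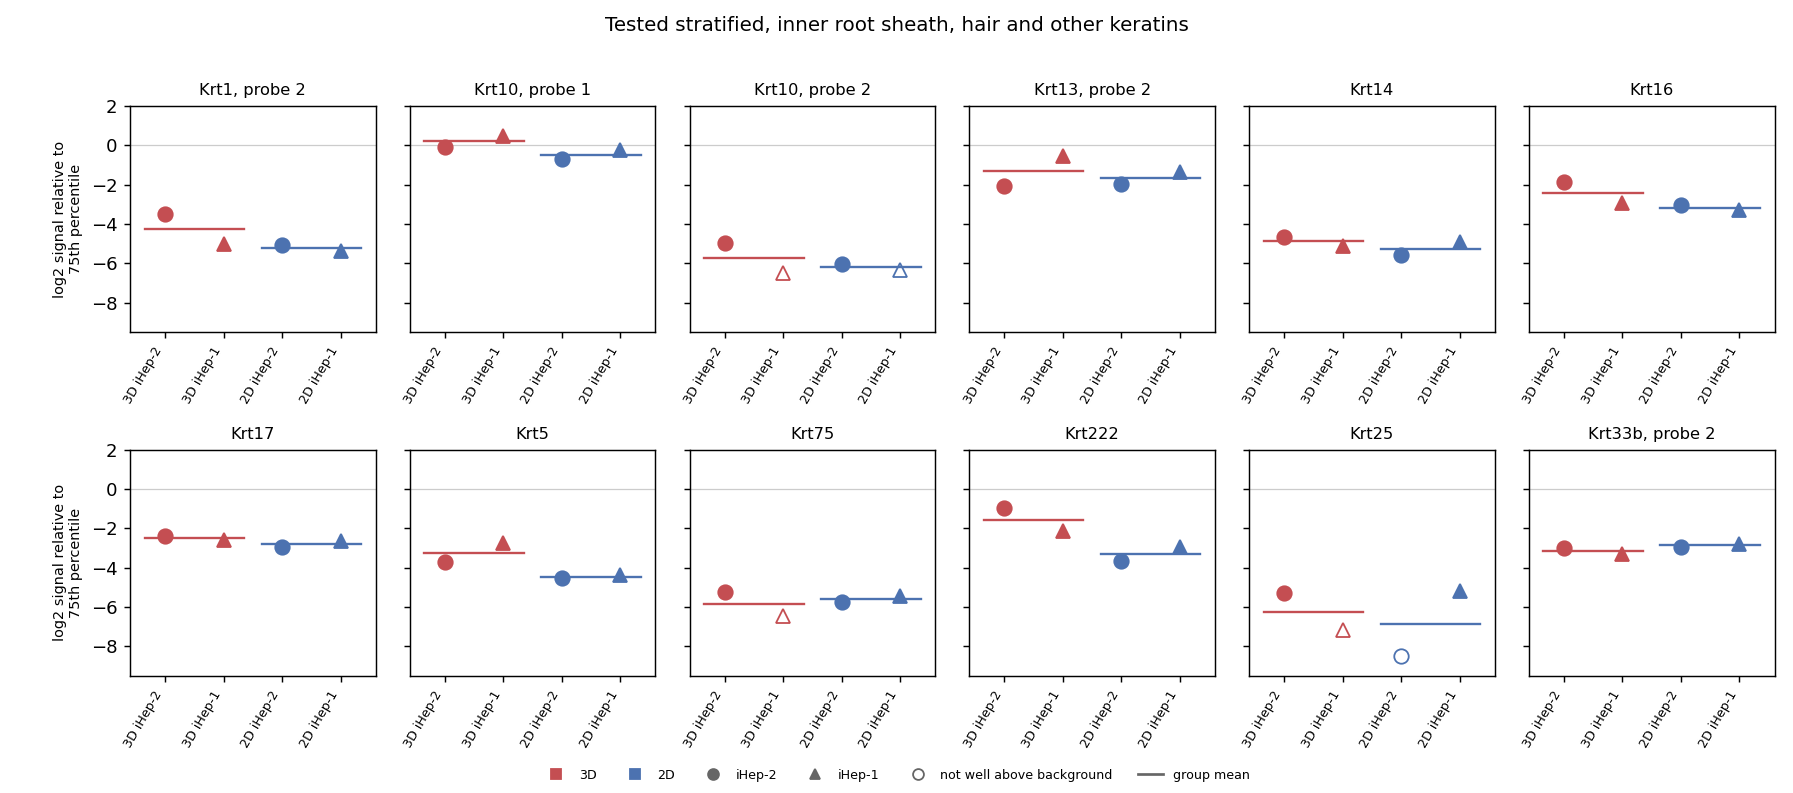
Levels (y, log2 signal relative to the array's 75th percentile) of the 12 tested probes of stratified, inner root sheath, hair and other keratins on the 4 arrays (x), drawn as circles for iHep-2 and triangles for iHep-1, open where not well above background, with lines for group means. Krt5, Krt16, Krt17, Krt222, Krt1 and Krt10 probe 1 have both 3D arrays above both 2D arrays, and Krt25 has 1 detected array in each culture.

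A further 6 keratins were detected on 1 array each and were not tested. Krt4, Krt78 and Krt79 were detected in 3D iHep-1 alone, at -5.55, -3.72 and -3.82. Krt78 was at least 2.39-fold and Krt79 at least 1.25-fold brighter in 3D than in 2D, on the strength of that single array. Krt6b, Krt80 and Krt84 were detected in 2D iHep-2 alone, at -5.87, -5.16 and -5.46, on an array whose lowest detected signal was -6.22.

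No keratin was called by culture. limma with Benjamini-Hochberg adjustment over 24468 tested probes called 0 probes higher (0%) and 0 lower (0%) in 3D than in 2D, and none with the experiment as a block; the smallest adjusted p was 0.556, and 0.113 with the block. At an unadjusted p under 0.05 there were 1717 probes (7.02%), and 2 of the 17 tested keratin genes (Krt5 and Krt222). With the block there were 3283 probes (13.4%) and 6 of 17 keratin genes. Among these 17 the limma adjusted p ran from 0.695 to 0.965, and from 0.223 to 0.854 with the block.

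By size, Krt8, Krt20 and Krt23 had at least 2-fold more signal in 3D in each experiment, 3 of 17 tested keratin genes against 3.77% of all tested probes. None had 2-fold less in each, against 1.95%, so that 3 of 17 differed in either direction, against 5.72%. In sign, 9 of 17 favoured 3D in each experiment, 1 favoured 2D in each and 7 were opposite, where all tested probes gave 31.8%, 33.8% and 34.4%. Both 3D arrays lay above both 2D arrays for 6 of 17 (Krt1, Krt5, Krt10, Krt16, Krt17 and Krt222, against 19.1% of all probes) and below for 1 (Krt33b, against 22%). Krt1 is counted by its plus-strand probe, which may not read Krt1 message. The median over the 17 genes was 0.69 log2 units and that over all tested probes -0.0019.

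The direction of the small differences depends on the scaling. Scaling the arrays to their spike-in controls lowered the median of all tested probes to -1.12, and under it Krt1, Krt7, Krt10, Krt13, Krt14, Krt16, Krt17, Krt18, Krt19 and Krt25 turned negative. On that scale Krt8 alone kept a difference of at least 2-fold in each experiment, 1.11 in iHep-2 and 3.04 in iHep-1.

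Between experiments the family split. In iHep-2 relative to iHep-1, limma called 67 probes higher (0.274%) and 110 lower (0.45%), none of them a keratin; with culture as a block it called 247 higher (1.01%) and 300 lower (1.23%), among them Krt20 and Krt23. At an unadjusted p under 0.05, 7 of 17 keratin genes passed (12.4% of all probes). At least 2-fold higher in iHep-2 in both cultures were Krt8, Krt19, Krt20 and Krt23, 4 of 17 (4.6%), and at least 2-fold lower was Krt18, 1 of 17 (5.12%), or 5 of 17 in either direction (9.72%). In sign, 7 of 17 were higher in iHep-2 in each culture, 4 lower and 6 opposite, where all tested probes gave 29.1%, 34.7% and 36.2%. The keratin median was 0.21, against -0.0227 over all tested probes. Both iHep-2 arrays lay above both iHep-1 arrays for Krt7, Krt8, Krt19, Krt20 and Krt23 (5 of 17, against 18.4%), and below for Krt13 and Krt18 (2 of 17, against 23.4%).

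The simple keratins lay far from the middle of all probes in this contrast. The share of tested probes with a lower mean difference was 99.6% for Krt8 probe 1, 99.4% for Krt20 and 99.2% for Krt23, and 1.70% for Krt18. In the culture contrast the shares were 99.1% for Krt8 probe 1, 98.7% for Krt20 and 95.3% for Krt23.

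**Figure D4:**
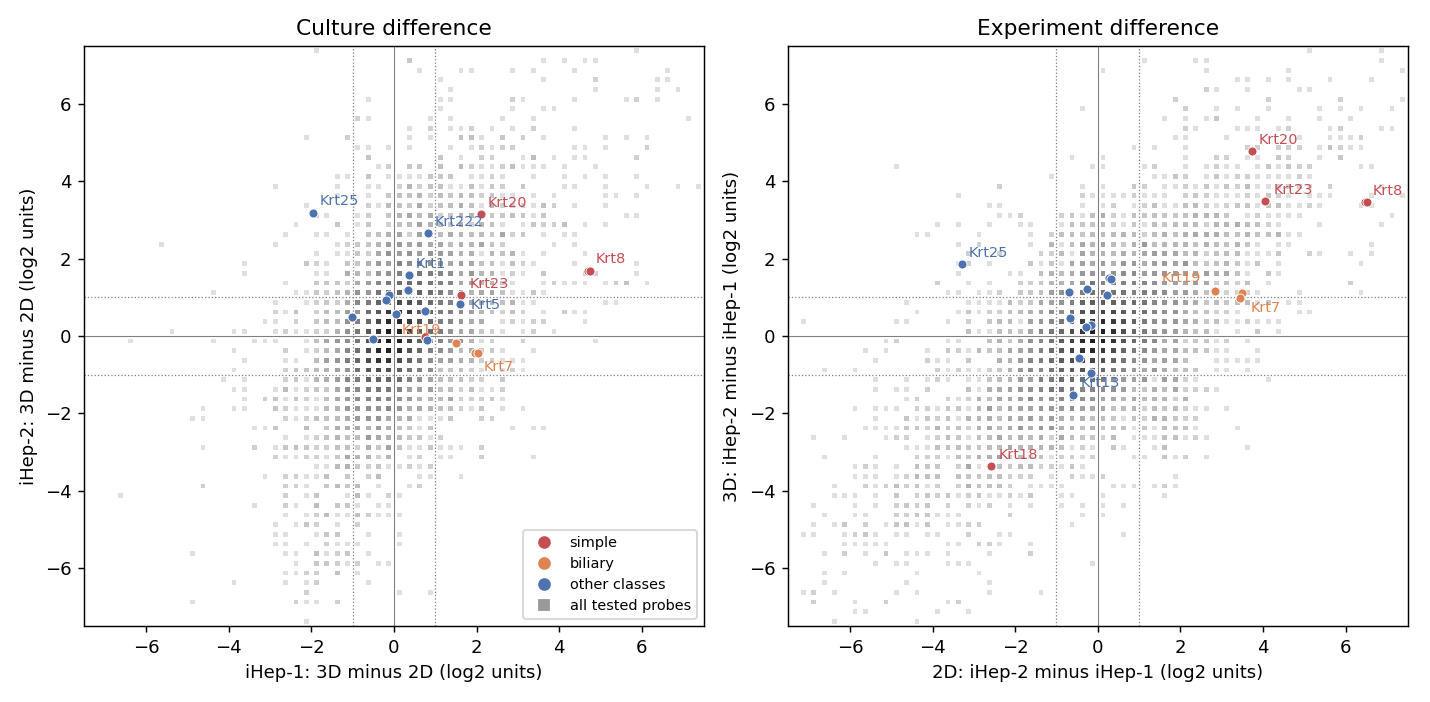
Differences in log2 units on both axes: left, 3D minus 2D in iHep-2 (y) against iHep-1 (x), and right, iHep-2 minus iHep-1 in 3D (y) against 2D (x). Grey squares are bins of all tested probes within the axis range, darker for more probes, coloured points are keratin probes and dotted lines mark 2-fold. Krt8, Krt20 and Krt23 lie beyond both dotted lines on the upper right in both panels, and Krt18 lies on the lower left of the right panel.

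The promoters of Krt8, Krt20, Krt23 and Krt7, simple and biliary keratins with more signal in iHep-2 in both cultures, are printed with that of Krt18, which had less. Krt19 had no entry. Each runs from 250 bases before to 50 after the start given by RefSeq for build GRCm38.p6, and 28 of the keratin genes had an entry. Capitals mark matches on either strand to 5 motifs: the TATA box core ATAAA, the AP-1 motif TGANTCA, the GC box motif GGGCGG, the TEAD motif GGAATG and the CCAAT box. Krt8 is at chr15:102004293-102004592 on the minus strand, Krt7 at chr15:101412153-101412452 on the plus strand, Krt18 at chr15:102027966-102028265 on the plus strand, and Krt20 at chr11:99438104-99438403 and Krt23 at chr11:99493071-99493370, both on the minus strand.
Krt8 promoter: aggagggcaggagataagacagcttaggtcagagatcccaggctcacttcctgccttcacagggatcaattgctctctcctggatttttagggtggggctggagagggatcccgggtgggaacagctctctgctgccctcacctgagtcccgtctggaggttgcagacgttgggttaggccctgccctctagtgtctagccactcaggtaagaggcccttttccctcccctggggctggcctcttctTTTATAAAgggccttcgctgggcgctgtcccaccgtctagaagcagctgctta
Krt20 promoter: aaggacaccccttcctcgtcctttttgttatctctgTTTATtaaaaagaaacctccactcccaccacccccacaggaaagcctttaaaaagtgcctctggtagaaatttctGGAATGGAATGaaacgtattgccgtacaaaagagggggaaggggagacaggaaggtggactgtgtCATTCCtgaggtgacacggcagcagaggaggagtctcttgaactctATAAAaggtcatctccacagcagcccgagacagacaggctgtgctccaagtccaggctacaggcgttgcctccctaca
Krt23 promoter: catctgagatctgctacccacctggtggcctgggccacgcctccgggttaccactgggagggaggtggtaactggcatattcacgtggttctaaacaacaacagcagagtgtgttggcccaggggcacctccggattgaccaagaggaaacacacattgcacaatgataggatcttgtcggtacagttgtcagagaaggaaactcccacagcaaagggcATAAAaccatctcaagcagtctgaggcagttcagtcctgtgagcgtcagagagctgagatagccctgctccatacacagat
Krt7 promoter: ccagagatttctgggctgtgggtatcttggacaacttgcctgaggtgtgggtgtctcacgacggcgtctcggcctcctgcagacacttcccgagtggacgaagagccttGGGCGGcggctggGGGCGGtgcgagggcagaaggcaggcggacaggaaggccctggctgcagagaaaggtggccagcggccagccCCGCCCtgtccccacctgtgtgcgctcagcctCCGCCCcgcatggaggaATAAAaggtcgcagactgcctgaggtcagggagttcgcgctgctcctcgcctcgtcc
Krt18 promoter: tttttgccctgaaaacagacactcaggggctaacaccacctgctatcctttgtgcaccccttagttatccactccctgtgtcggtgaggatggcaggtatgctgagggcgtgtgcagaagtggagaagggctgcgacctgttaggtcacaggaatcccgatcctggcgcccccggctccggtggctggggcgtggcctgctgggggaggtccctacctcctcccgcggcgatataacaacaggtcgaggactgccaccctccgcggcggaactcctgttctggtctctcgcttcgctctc

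The Krt20 window held GGAATG at positions -139 and -134 on the sense strand and at -74 on the other strand, where 14.7% of 32851 RefSeq promoters hold at least 1. Positions count from 0 at the first base of the annotated start. ATAAA, which 40% of promoters hold, was found in Krt20 at -28, and at -214 on the other strand, and in Krt23 at -31. In Krt8 it was found at 0, and at -3 on the other strand, overlapping. The Krt7 window held GGGCGG at -141 and -128, and at -56 and -24 on the other strand, with ATAAA at -7. The Krt18 window matched none of the 5 motifs, of which TGANTCA is in 7.81%, GGGCGG in 35.7% and CCAAT in 37.4% of promoters. A match is a run of letters and not a measured site.

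Keratin filaments attach to desmosomes and hemidesmosomes through plakin proteins, and the genes of these junctions were read beside the keratins. Of 21 genes listed, 20 were on the array and 14 were tested. In limma none was called in either contrast. With culture as a block 1 was called higher in iHep-2 (Dsc2, adjusted p of 0.0322), where 1.01% of all tested probes were. Dsc2 entered the test only through the iHep-2 arrays, where it is high. Its iHep-1 values were not well above background, so nothing is drawn from this call. Only Pkp1, a desmosomal plaque protein, had at least 2-fold more signal in 3D in each experiment, by 1.79 in iHep-2 and by 2.31 in iHep-1 (1 of 14, against 3.77% of all probes), and none had 2-fold less. Dsp, the desmoplakin that binds keratin directly, was at 2.24 and 1.67 in 3D of iHep-2 and iHep-1, against 2.26 and 0.41 in 2D. The 2D array of iHep-1 was again the lowest.

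Between experiments, 4 of the 14 junction genes were at least 2-fold higher in iHep-2 in both cultures (Pkp1, Dsc2, Perp and Itga6; 4.6% of all tested probes) and 1 was lower (Dsg2; 5.12%), and the list's median was 1.16 log2 units, against -0.0227 over all tested probes. Dsc2, a desmosomal cadherin, was detected on the iHep-2 arrays only, at -1.87 in 3D and -2.56 in 2D. It entered the test, and so the count of 4, only through those arrays, where it is high. Its values in iHep-1 were not well above background, so that only a bound can be given, at least 13.98-fold higher in iHep-2. Dsg2, the desmosomal cadherin of simple epithelia, was at -2.45 and 0.32 in 3D of iHep-2 and iHep-1, against -1.68 and -0.57 in 2D. The epidermal cadherins Dsg1a, Dsg3, Dsg4, Dsc1 and Dsc3 were not detected on any array. The genes named for this contrast were chosen after their values were seen.

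**Figure D5:**
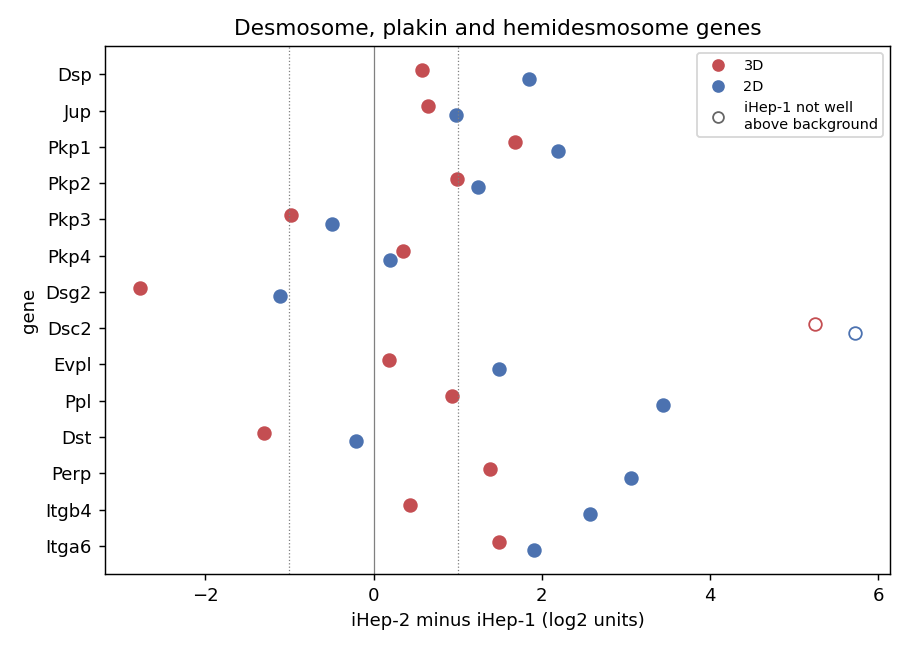
Difference of iHep-2 minus iHep-1 (x, log2 units) for the 14 tested desmosome, plakin and hemidesmosome genes (y), with red points for 3D, blue points for 2D, open where iHep-1 was not well above background, and dotted lines at 2-fold. Both Dsc2 points are open, and Dsg2 lies left of the lower dotted line in both.

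Other intermediate filament genes differed in both directions. Of 8 tested, 1 was at least 2-fold higher in each experiment's 3D array (Bfsp1, a lens filament protein, by 1.60 in iHep-2 and by 1.53 in iHep-1; 3.77% of all tested probes) and 1 lower (Lmnb1, a nuclear lamin, at -2.06 and -1.07; 1.95%). Vim, the vimentin of mesenchymal cells, was at 3.90 and 4.72 in 3D of iHep-2 and iHep-1, against 5.86 and 3.61 in 2D, so that 3D minus 2D was -1.96 in iHep-2 and 1.11 in iHep-1. limma called none of the 8 in either contrast.

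Of 13 tested transcription factors that act on epithelial or keratin genes, Grhl2 and Elf3 had at least 2-fold more signal in 3D in each experiment (3.77% of all tested probes). Grhl2, a factor of epithelial junction genes, was detected in 3D only, at -4.92 in iHep-2 and -3.67 in iHep-1. This gene entered the test only through those arrays, and it was at least 3.51-fold higher in 3D than in 2D. Elf3, an epithelial factor, was at -4.07 and -1.36 in 3D of iHep-2 and iHep-1, against -6.38 and -2.47 in 2D, and the 2D iHep-2 value was not well above background. Trp63, the master factor of stratified epithelium, was not detected, nor were Ovol1, Ehf and Foxa1. Hnf4a, the hepatocyte factor, was at 1.17 and 1.20 in 3D of iHep-2 and iHep-1, against 0.93 and 2.01 in 2D. limma called none of the 13 in either contrast, and 1 (Foxa3, adjusted p of 0.0332, higher in iHep-2; 1.01% of all tested probes) with culture as a block.

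Genes of the cornified envelope, the cross-linked shell of dead keratinocytes, were mostly not detected. Of 17 on the array, 11 were not detected on any array, including the envelope protein Ivl and the filaggrin Flg, and 5 were tested, none at least 2-fold by culture in each experiment. Between experiments limma called 1 of the 5, the envelope protein Sprr1a, at 0.62 and -3.05 in 3D of iHep-2 and iHep-1, against 0.64 and -2.51 in 2D (adjusted p of 0.0452), where 0.274% of all tested probes were called higher in iHep-2. Of the 9 keratinocyte markers, 6 were detected on each array, with Krt1 counted by its plus-strand probe, and Trp63, Ivl and Dsg3 on none. Their summed linear signal, in multiples of the 75th percentile, was 10.9 and 16.9 in 3D of iHep-2 and iHep-1, against 10.8 and 14.9 in 2D. Sfn, the protein stratifin of epithelial cells, carried most of it, at 3.27 and 3.93 in 3D, against 3.32 and 3.80 in 2D.

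Of the 8 fibroblast markers, 2 were detected in 3D iHep-2, 5 in 3D iHep-1, 3 in 2D iHep-2 and 3 in 2D iHep-1, and Dcn, Lum and Thy1 on none. Pdgfra, a growth factor receptor of mesenchymal cells, was detected on all arrays, at 2.91 and 2.80 in 3D of iHep-2 and iHep-1, against 2.25 and 2.15 in 2D. Col1a2, a collagen chain, was also detected on all, at -3.46 and -2.33 in 3D, against -3.67 and -3.56 in 2D. Pdgfrb was detected on all but 3D iHep-2, and Col1a1 and Col3a1 in 3D iHep-1 only. The markers summed to 7.62 and 7.59 times the 75th percentile in 3D of iHep-2 and iHep-1, against 4.92 and 5.095 in 2D, and their part in the keratin results was not tested.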

How the data were processed

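Total RNA from 4 samples was labelled with Cy3 and hybridised to 1-colour Agilent arrays of design 014868, per the labels. Each deposited array file gives spot intensity on a linear scale from Feature Extraction, version 10.7.1.1 per the file headers and 9.5.1.1 per the submitters' processing notes. Log2 of the processed signal minus each array's 75th percentile was used, without spots flagged as nonuniform or as population outliers (72 to 85 per array), and spots of a probe were averaged. Probes well above background on at least 2 arrays were tested (24468). Groups were compared with limma 3.58.1 in R 4.3.3 (lmFit, eBayes), two-sided, with Benjamini-Hochberg adjustment over all tested probes at 0.05. Without a block, p-values set a difference against the spread between the 2 arrays of a group. For the experiment contrast that spread is the difference between cultures. With a block, they set it against its disagreement between the 2 experiments or the 2 cultures. Fits with spike-in scaling are an exception, described below. A gene is read by its tested probe with the highest mean. The design text ties replicate numbers to a shared experiment, and same-numbered arrays deviated together (r = 0.66 across 24468 probes). A fold against an undetected group is a bound from the lowest detected signal. The authors' series table, also linear intensity as deposited, served as an alternative with column medians of 22.6 in iHep-2 and 26.3 in iHep-1. Its scaling method is not stated. The fit was tested on simulated data. All detected keratins are described. Members, lists and tests were chosen with earlier results of these data known. RefSeq (GRCm38.p6) supplied promoters and gene strands.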

Additional observations from a re-analysis of the deposited data

Results flagged for a closer look

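For 7 keratin genes the 3D minus 2D difference had opposite signs in the 2 experiments, and the difference between experiments was not tested, since each culture had 1 array per experiment. Over all tested probes 34.4% had opposite signs. The difference in iHep-2 minus that in iHep-1, in log2 units, was 5.16 for Krt25, but each experiment's difference is taken against a value not well above background, so that its size is not measured. It was -2.47 for Krt7 and -1.68 for Krt19, both lowest in 2D iHep-1. It was 1.50 for Krt75, whose 3D iHep-1 value was not well above background, 1.14 for Krt14, -0.92 for Krt13 and -0.78 for Krt18.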

How the results depend on the processing

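With 2 arrays per group, only large and even differences could pass, and dim probes such as Krt25 and Krt75 lie near background. The replicate block changed no culture call: limma called 0 probes with it, as without it. Spike-in scaling gave 437 culture calls (no keratin) and left 1 keratin gene (Krt8) at least 2-fold in both experiments. With it the limma adjusted p followed the size of the difference, whatever the spread. By culture it was 0.523 for Krt18 and 0.526 for Krt14, both at -0.75. Calls under spike-in scaling therefore do not reflect each probe's own spread between arrays. The normexp correction left 2 keratin genes at least 2-fold, Krt23 dropping out. For iHep-2 minus iHep-1, 177 calls became 520 with spike-in scaling (Krt8, Krt20 and Krt23 among them), 547 with culture as a block, 3 with detection on all 4 arrays, 63 with 1 probe per gene, and 0 (range 0 to 0) without any single array. Leaving out an array gives no count in both experiments, so that alternative was not run for the 2-fold counts. It also leaves the cultures with unlike experiments, so that the difference between experiments enters the culture difference. Of 202 values per contrast, 22 by culture and 13 by experiment changed sign, and the cause was not tested. By culture, spike-in scaling gave -0.15 for Krt1, -0.43 for Krt10, -0.77 for Krt13, -0.75 for Krt14, -0.36 for Krt16, -0.82 for Krt17, -0.75 for Krt18, -0.46 for Krt19, -0.51 for Krt25 and -0.33 for Krt7, and normexp 0.16 for Krt75. Leaving out 1 array at a time gave -0.036 to 6.43 for Krt8, -0.93 to 2.52 for Krt7, -0.76 to 2.09 for Krt19, -0.68 to 3.37 for Krt23, -1.31 to 2.05 for Krt18, -0.41 to 1.11 for Krt13, -1.04 to 2.26 for Krt25 and -0.87 to 0.36 for Krt75; the lowest value of Krt8, Krt7, Krt19 and Krt23 came without 2D iHep-1, and that of Krt18 and Krt13 without 3D iHep-1. By experiment, normexp gave 0.13 for Krt14 and 0.044 for Krt17, spike-in scaling 0.038 for Krt17 and the authors' table -0.081 for Krt33b. Leaving out 1 array at a time gave -0.57 to 0.37 for Krt14, -0.32 to 0.25 for Krt17, -1.11 to 1.54 for Krt222, -2.31 to 0.88 for Krt25, -0.18 to 0.32 for Krt33b, -1.37 to 0.24 for Krt5 and -0.025 to 0.98 for Krt75.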
